A study of Mus musculus with 12 samples.

Results

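The 9 genes S100a8, S100a9, Ngp, Camp, Ltf, Lcn2, Retnlg, Mpo and Elane, whose products are known from neutrophil granulocytes, were followed through 12 libraries of ribosome-bound RNA from the newborn mouse inner ear. They were taken by symbol from the 29641 genes listed in the deposited tables, and all 9 were listed in both organs. Mutants were Gfi1Cre/Cre;RiboTagHA/HA and were set against heterozygous controls that were Gfi1Cre/+;RiboTagHA/HA, all at P0-P1. Each genotype had 3 libraries from cochlea, the organ of hearing, and 3 from vestibule, the organ of balance. RiboTag mice carry a ribosomal protein that gains an HA tag wherever Cre recombinase has acted, and both RiboTag copies were present in each group. An HA antibody pulled the tagged ribosomes down. Cre was driven from the Gfi1 locus, so that the dose of Cre differed between the genotypes together with the dose of unmodified Gfi1, and the effects of these doses cannot be told apart. The series describes the triplicates as independent and biological. Cochlear and vestibular libraries were made with different kits (NuGEN Ovation Ultralow and NEBNext Ultra Directional, per the labels' protocols), so organ and kit cannot be told apart.

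Neutrophil granulocytes are white blood cells that mature in bone marrow, and in the newborn also in liver and spleen, and carry their defence proteins in granules made in a fixed order. Primary (azurophil) granules are filled first, at the promyelocyte stage, with myeloperoxidase (Mpo) and serine proteases such as neutrophil elastase (Elane). Secondary (specific) granules follow at the myelocyte stage with lactoferrin (Ltf), cathelicidin (Camp), neutrophilic granule protein (Ngp) and lipocalin 2 (Lcn2). S100a8 and S100a9 form calprotectin, the main cytosolic protein pair of mature neutrophils, and Retnlg encodes a resistin-like secreted protein found in mouse neutrophils. Gfi1 encodes a zinc finger repressor that granulocyte precursors need to mature, as hair cells do to survive, and mice without it are known to lack mature neutrophils. The transcription factors of the C/EBP family and PU.1 are known to switch on granule genes.

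In the GENCODE M21 annotation of GRCm38 the 9 genes are protein coding, and their identifiers are those of the deposited tables. The calprotectin genes neighbour each other on chromosome 3, with S100a8 (ENSMUSG00000056054) at chr3:90668978-90670035 on the plus strand and S100a9 (ENSMUSG00000056071) at chr3:90692632-90695721 on the minus strand, a gap of 22.6 kb. A run of secondary granule genes lies on chromosome 9, with Camp (ENSMUSG00000038357) at chr9:109847379-109849617 on the minus strand, Ngp (ENSMUSG00000032484) at chr9:110419747-110423012 on the plus strand and Ltf (ENSMUSG00000032496) at chr9:111019271-111042767 on the plus strand. Camp and Ngp are 570.1 kb apart and Ngp and Ltf 596.3 kb apart. The annotation places Lcn2 (ENSMUSG00000026822) at chr2:32384633-32388252 on the minus strand and Retnlg (ENSMUSG00000022651) at chr16:48872621-48874496 on the plus strand. The primary granule genes are Mpo (ENSMUSG00000009350) at chr11:87793581-87804413 on the plus strand and Elane (ENSMUSG00000020125) at chr10:79886247-79888215 on the plus strand. Of the exon bases of Mpo, 14.95% are shared with another annotated gene, and with the strand setting of the counting not given in the sources used here its reads could be divided between both. The other 8 genes share no exon base with another gene.

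Promoter letters are shown for 4 genes that were strongly lower in mutants, because the window before the start of each holds the letters of a C/EBP site. The window ran from 250 bases before to 50 bases after the start in the RefSeq promoter table (GRCm38.p6), which matched 9 of 9 genes. Each stretch is printed 5′ to 3′ on the strand of its gene and stops before the first exon base that GENCODE annotates. Capitals mark the match to TTNNGCAA on either strand. Ngp has another match at positions -11 to -4, past the end of its printed stretch. Ngp is shown from chr9:110419558-110419746 (plus strand), Ltf from chr9:111019042-111019270 (plus strand), Retnlg from chr16:48872358-48872607 (plus strand) and S100a9 from chr3:90695722-90695971 (minus strand).
Ngp: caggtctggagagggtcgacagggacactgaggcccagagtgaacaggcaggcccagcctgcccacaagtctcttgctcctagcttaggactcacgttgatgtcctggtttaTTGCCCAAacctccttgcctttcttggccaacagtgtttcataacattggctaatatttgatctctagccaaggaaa
Ltf: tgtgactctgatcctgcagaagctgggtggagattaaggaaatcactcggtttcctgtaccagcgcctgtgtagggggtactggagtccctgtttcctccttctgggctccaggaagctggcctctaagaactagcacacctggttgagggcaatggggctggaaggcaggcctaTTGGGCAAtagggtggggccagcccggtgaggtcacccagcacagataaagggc
Retnlg: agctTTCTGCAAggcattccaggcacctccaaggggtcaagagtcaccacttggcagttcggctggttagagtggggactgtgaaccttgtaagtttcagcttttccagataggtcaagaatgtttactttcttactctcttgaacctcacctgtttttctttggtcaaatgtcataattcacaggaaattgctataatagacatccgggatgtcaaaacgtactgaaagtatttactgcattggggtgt
S100a9: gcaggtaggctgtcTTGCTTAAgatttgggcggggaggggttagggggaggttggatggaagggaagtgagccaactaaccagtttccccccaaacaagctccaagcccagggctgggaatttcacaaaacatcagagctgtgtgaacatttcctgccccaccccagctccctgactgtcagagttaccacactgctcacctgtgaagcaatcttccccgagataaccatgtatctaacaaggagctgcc
TTNNGCAA, searched on both strands, was present in the windows of 5 of 9 genes (Ngp, Ltf, Retnlg, S100a9 and Lcn2), against 10.8% of 32851 promoters of the same length. GAGGAA, the core letters of PU.1 sites, was present on either strand in 5 of 9 (S100a8, Ltf, Lcn2, Mpo and Elane), against 28.3%. AAATCA, the core letters of GFI1 sites, was present on either strand in 1 of 9, at positions -211 to -206 of Ltf, against 14.0%. TATAAA on the strand of the gene was present in 2 of 9, against 8.32%. It lay at positions -30 to -25 of S100a8, before the start, and at 1 to 6 of S100a9, after the start. No match of one motif overlapped a match of another. These matches describe letters and are not evidence of binding.

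Cochlear libraries totalled 7531518 to 9363796 reads and vestibular libraries 18951026 to 29370267. Levels are given in CPM, the reads of a gene scaled to a common library total, and 1 read was worth 0.107 to 0.133 CPM in cochlear and 0.0340 to 0.0528 CPM in vestibular libraries. The targeted gene Gfi1 had 75.1, 64.3 and 69.1 CPM in the 3 mutant cochleae, against 165, 106 and 126 CPM in heterozygous cochleae, and 236, 198 and 208 CPM in mutant vestibules, against 534, 449.8 and 483 CPM in heterozygous vestibules. It was thus lower in every mutant library, as labelled, though which part of the transcript the Cre allele leaves is not stated in the labels. The 8 hair cell markers summed to 3401 to 4113 CPM in mutant and 5128 to 6294 CPM in heterozygous cochleae, and to 10057 to 10724 CPM in mutant and 8972 to 10186 CPM in heterozygous vestibules. The pull-down also held transcripts of other cells, described with the marker lists further on. Both vestibular replicate 1 libraries had more of their total outside the listed genes (0.729% in the mutant and 0.684% in the heterozygote) than the other vestibular libraries (0.119% to 0.127%), and the heterozygous one stood apart in Mpo and Elane.

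In mutant cochleae S100a9, the secondary granule genes and Retnlg were a small fraction of their heterozygous level, S100a8 was less far below it and did not pass the test, and Mpo and Elane were near the limit of counting in both genotypes. Of the 9 genes 6 reached 1 CPM in at least 3 of 6 cochlear libraries and were tested, and 5 of these were lower in mutants (limma on log2(CPM + 1), Benjamini-Hochberg adjusted p under 0.05 over 17985 genes) and 0 higher. None was higher at an unadjusted p under 0.05 or with edgeR or DESeq2. Among all genes tested in the cochlea 2.52% were called lower and 1.9% higher. The median change of the 6 was -1.79, beside 0.05 over all genes tested. Of these 6, Ngp, Ltf, Lcn2 and Retnlg passed the filter only through the heterozygotes and had to differ, so the counts and this median give no support of their own. In bulk RNA, fewer cells of a type and less RNA per cell cannot be told apart.

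Calprotectin had the most reads in either genotype. S100a9 had 4.0, 0.645 and 1.74 CPM in mutant cochleae, against 15.1, 25.6 and 23.2 CPM in heterozygous cochleae. All mutant libraries lay far below all heterozygous ones. S100a9 averaged 2.13 ± 1.71 CPM in mutants and 21.3 ± 5.5 CPM in heterozygotes (SD, n = 3 each) and fell by 2.95 on the log2(CPM + 1) scale (SE 0.36, limma adjusted p = 0.000195). Its partner S100a8 had 4.37, 3.10 and 3.13 CPM in mutants, against 5.08, 12.3 and 9.61 CPM in heterozygotes. Its groups did not overlap either, but the highest mutant and the lowest heterozygous library were close. The change of -1.08 (SE 0.30, limma adjusted p = 0.0628) did not pass, whereas with the replicate number as a block S100a8 passed at an adjusted p of 0.0116, and with edgeR on the recovered reads at 0.0372 (range 0.00461 to 0.267 over 16 alternatives). With the block 6 of 6 tested genes were lower, beside 4.31% of all genes tested, and with edgeR 6 of 6 beside 2.85% (1.67% of all genes were higher with edgeR). On the pooled reads of the 3 libraries, the heterozygous level was 10.02 (95% interval 7.52 to 13.6) times the mutant level for S100a9 and 2.55 (95% interval 1.98 to 3.31) times for S100a8. These exact intervals, here and below, cover counting error only.

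Secondary granule genes were scarce in mutant cochleae, with Ngp and Ltf almost absent. Ngp had 0.125, 0 and 0.232 CPM in mutants, against 4.70, 8.63 and 4.81 CPM in heterozygotes. The mutant values stand for 3 mutant against 147 heterozygous reads in all. Ngp fell by 2.62 on the log2(CPM + 1) scale (SE 0.28, limma adjusted p = 8.27e-05), the smallest adjusted p among the 9 genes in this organ. Ltf had 0.25, 0 and 0 CPM in mutants, against 2.92, 5.71 and 3.20 CPM in heterozygotes, and fell by 2.16 on the log2(CPM + 1) scale (SE 0.28, limma adjusted p = 0.000414). Only 1 of 3 mutant cochleae held any Ltf read. Lcn2 had 0.25, 0.387 and 0.695 CPM in mutants, against 1.91, 4.65 and 1.82 CPM in heterozygotes. Lcn2, a siderophore-binding protein that other cell types also make, fell by 1.32 on the log2(CPM + 1) scale (SE 0.31, limma adjusted p = 0.0258). Its groups did not overlap, but the call was lost without heterozygous replicate 2, mutant replicate 1 or mutant replicate 2, and the adjusted p ran from 0.00459 to 0.119 over 15 alternatives. Camp, at 0, 0 and 0.232 CPM in mutants and 0.381, 0.531 and 1.07 CPM in heterozygotes, stayed under the filter and was not tested. Its groups did not overlap, at 2 mutant and 17 heterozygous reads. The pooled heterozygous level was 48.2 (95% interval 16.2 to 237) times the mutant level for Ngp, 47.3 (95% interval 12.7 to 396) for Ltf, 6.0 (95% interval 3.15 to 12.6) for Lcn2 and 8.37 (95% interval 1.99 to 74.7) for Camp.

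Retnlg had 0.125, 0 and 0 CPM in mutant cochleae, against 2.41, 1.33 and 1.71 CPM in heterozygous cochleae, and fell by 1.42 on the log2(CPM + 1) scale (SE 0.26, limma adjusted p = 0.00536). A single mutant read stood against 45 heterozygous reads, a pooled ratio of 44.3 (95% interval 7.56 to 1788) of heterozygotes to mutants. The primary granule genes showed no such separation. Mpo had 0.625, 0.129 and 0.579 CPM in mutants, against 0.508, 0.133 and 0.641 CPM in heterozygotes. Each genotype held 11 Mpo reads and the groups overlapped. Elane had 0, 0 and 0.116 CPM in mutants, against 0.381, 0 and 0 CPM in heterozygotes, and 1 mutant read against 3 heterozygous reads allow no statement at this depth. Across the cochlea the mutant libraries lay wholly below the heterozygous ones for 7 of 9 genes, including 6 of the 6 tested, beside 7.77% of all genes tested. For Ngp, Ltf, Lcn2 and Retnlg this was fixed by the filter, which they passed only through the heterozygotes. This count too gives no support of its own.

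**Figure D1:**
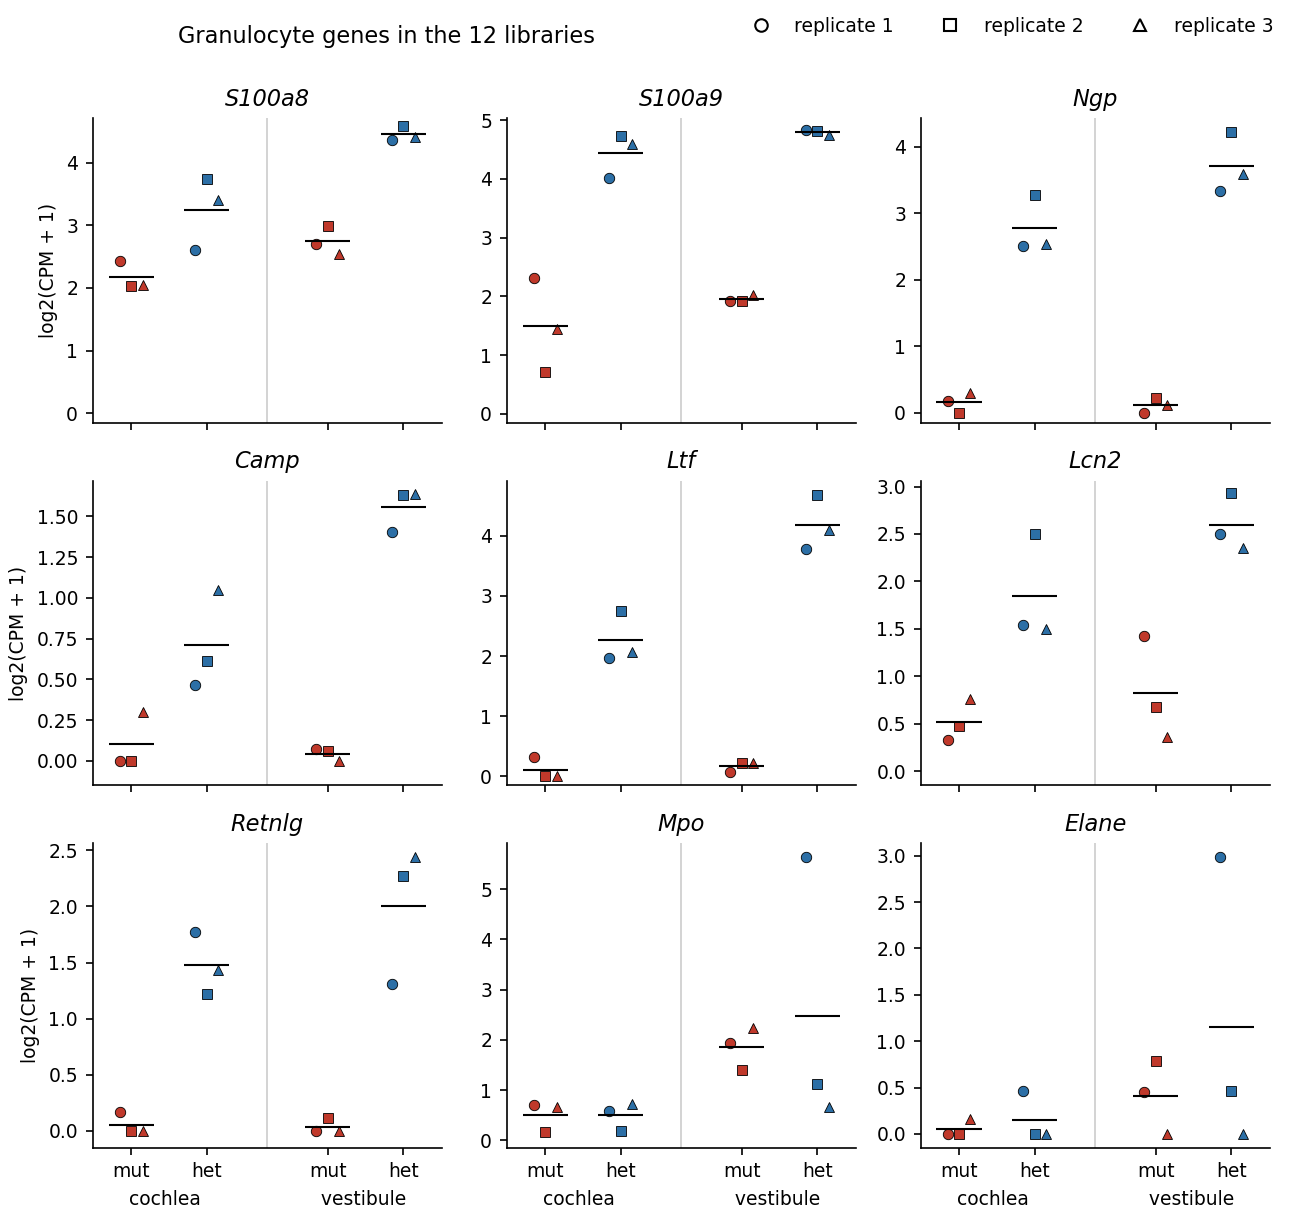
Level of each of the 9 genes, as log2(CPM + 1), in the 12 libraries, with mutants (red, mut) and heterozygotes (blue, het) of cochlea and vestibule, symbols for replicate numbers and a bar for the mean of 3 libraries. Mutants lie below heterozygotes in both organs for every gene but Mpo and Elane, where vestibular heterozygous replicate 1 is far above the other libraries.

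In mutant vestibules the same roles were low, in libraries sequenced more deeply. Of the 9 genes 8 were tested and 7 were lower in mutants and 0 higher by the same test over 15595 genes, beside 1.09% called lower and 2.41% called higher among all genes tested. Here too none was higher at an unadjusted p under 0.05 or with edgeR or DESeq2. The median change of the 8 was -1.87, beside -0.06 over all genes. Ngp, Camp, Ltf and Retnlg passed the filter only through the heterozygotes and had to differ, so the counts in this paragraph and this median give no support of their own. With the replicate block 7 were again lower, beside 12.8% of all genes, and with edgeR 6 were lower, beside 0.853% (2.51% of all genes were higher with edgeR).

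S100a9 had 2.80, 2.80 and 3.07 CPM in mutant vestibules, against 27.5, 27.3 and 25.9 CPM in heterozygous vestibules. The libraries within each group were nearly alike. S100a9 averaged 2.89 ± 0.157 CPM in mutants and 26.9 ± 0.832 CPM in heterozygotes (SD, n = 3 each) and fell by 2.84 on the log2(CPM + 1) scale (SE 0.18, limma adjusted p = 0.000194). S100a8 had 5.49, 6.96 and 4.83 CPM in mutants, against 19.6, 22.9 and 20.1 CPM in heterozygotes, without overlap, and fell by 1.70 on the log2(CPM + 1) scale (SE 0.20, limma adjusted p = 0.00318). The pooled heterozygous level was 9.25 (95% interval 7.98 to 10.8) times the mutant level for S100a9 and 3.61 (95% interval 3.23 to 4.05) times for S100a8. S100a8 thus kept a larger part of its heterozygous level than S100a9 did, and the intervals of these ratios do not overlap in either organ.

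Ltf had 0.0528, 0.170 and 0.164 CPM in mutant vestibules, against 12.7, 24.7 and 16.1 CPM in heterozygous vestibules. Ltf averaged 0.129 ± 0.0659 CPM in mutants and 17.8 ± 6.20 CPM in heterozygotes (SD, n = 3 each), and fell by 4.01 on the log2(CPM + 1) scale (SE 0.28, limma adjusted p = 0.000326). No other of the 9 genes changed as much on this scale in either organ. Ngp had 0, 0.170 and 0.0819 CPM in mutants, against 9.06, 17.6 and 11.1 CPM in heterozygotes, and fell by 3.60 on the log2(CPM + 1) scale (SE 0.28, limma adjusted p = 0.000565). Both genes were represented by single-digit reads in mutants, 9 for Ltf and 6 for Ngp, against 1346 and 948 in heterozygotes. The pooled heterozygous level was 132 (95% interval 69.5 to 290.1) times the mutant level for Ltf and 139.8 (95% interval 64.0 to 382) times for Ngp. Camp had 0.0528, 0.0425 and 0 CPM in mutants, against 1.65, 2.10 and 2.11 CPM in heterozygotes, and fell by 1.51 on the log2(CPM + 1) scale (SE 0.24, limma adjusted p = 0.0131). In CPM, not corrected for length, it was the scarcest of the secondary granule genes in heterozygotes of both organs, and its pooled ratio of heterozygotes to mutants was 65.9 (95% interval 17.9 to 549). Its call was lost without heterozygous replicate 2 or 3 or mutant replicate 2 or 3, and the adjusted p ran from 2.02e-05 to 0.0727 over 15 alternatives.

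Lcn2 had 1.69, 0.595 and 0.287 CPM in mutant vestibules, against 4.64, 6.63 and 4.12 CPM in heterozygous vestibules. The mutant libraries spread over a wide range but stayed below all heterozygous ones. Lcn2 fell by 1.77 on the log2(CPM + 1) scale (SE 0.33, limma adjusted p = 0.0250), and its pooled heterozygous level was 6.40 (95% interval 4.79 to 8.69) times the mutant level. The call was lost with edgeR (adjusted p = 0.0723), without the filter (0.0797), and without heterozygous replicate 2 or 3 or mutant replicate 2 or 3 (range 0.000244 to 0.124 over 15 alternatives). Retnlg had 0, 0.0849 and 0 CPM in mutants, against 1.47, 3.82 and 4.43 CPM in heterozygotes. It was at 0 in 2 of 3 mutant libraries, and fell by 1.97 on the log2(CPM + 1) scale (SE 0.34, limma adjusted p = 0.0176), with a pooled ratio of 112 (95% interval 30.8 to 933) of heterozygotes to mutants. This call too was lost without heterozygous replicate 2 or 3 or any 1 mutant library, and the adjusted p ran from 1.47e-06 to 0.0922 over 15 alternatives.

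Mpo and Elane followed single libraries rather than genotype in the vestibule. Mpo had 2.85, 1.66 and 3.69 CPM in mutants, against 48.9, 1.17 and 0.579 CPM in heterozygotes. Replicate 1 alone lifted the heterozygous mean to 16.9 ± 27.7 CPM, beside 2.73 ± 1.02 CPM in mutants (SD, n = 3 each), and the other 2 heterozygous libraries lay below all mutants. The change of -0.61 (SE 1.14, limma adjusted p = 0.866) did not pass, and without heterozygous replicate 1 it was 0.97 with an adjusted p of 0.190 (range 0.190 to 0.959 over 15 alternatives). Elane, not tested, had 0.369, 0.722 and 0 CPM in mutants, against 6.92, 0.377 and 0 CPM in heterozygotes, with the same library on top. The primary granule proteases Prtn3 (proteinase 3) and Ctsg (cathepsin G) were highest there too. Prtn3 had 9.55, 4.80 and 3.93 CPM in mutants, against 10.2, 1.59 and 2.42 CPM in heterozygotes. Ctsg had 0.792, 0 and 1.56 CPM in mutants, against 8.30, 1.38 and 0.375 CPM in heterozygotes. Across the vestibule the mutant libraries lay wholly below the heterozygous ones for 7 of 9 genes, including 7 of the 8 tested, beside 11.6% of all genes tested. For Ngp, Camp, Ltf and Retnlg this was fixed by the filter, which they passed only through the heterozygotes. The count thus gives no support of its own.

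**Figure D2:**
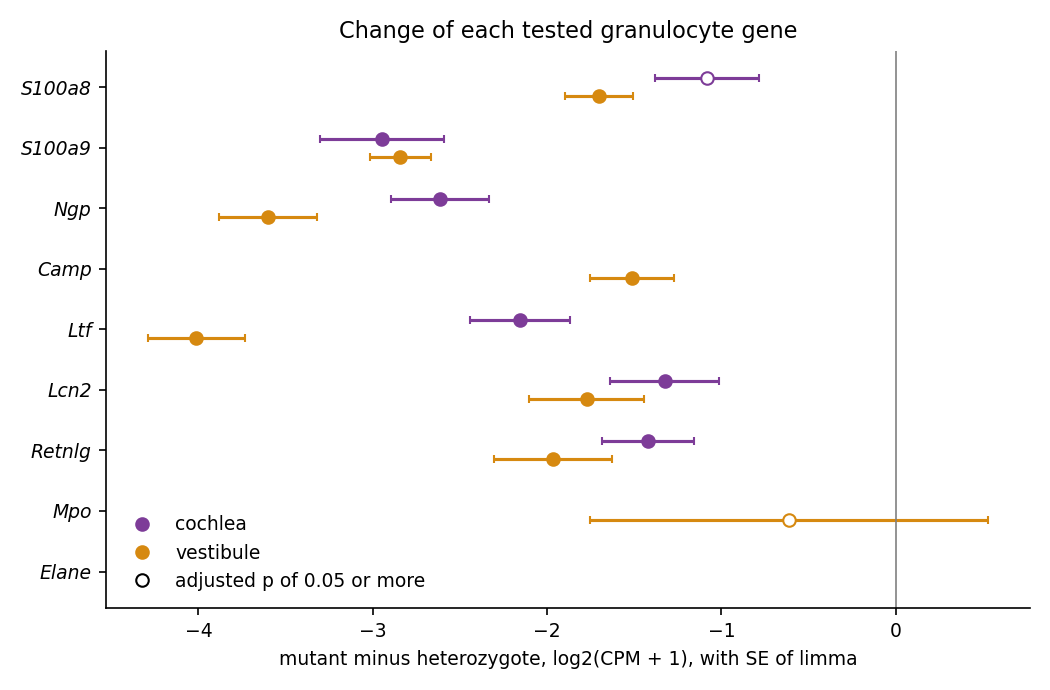
Difference in log2(CPM + 1), mutant minus heterozygote, for each tested gene with the standard error from limma, in cochlea (purple) and vestibule (orange); open circles did not pass an adjusted p of 0.05, and Camp and Mpo (cochlea) and Elane (both organs) were not tested. Values run from -4.01 for Ltf to -0.61 for Mpo, both in the vestibule.

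The order of the genes was compared per kb of exon, as CPM per kb, within each organ and genotype. In heterozygous cochleae S100a9 led with 40.8, followed by S100a8 (13.0), Ngp (4.95), Retnlg (3.06), Ltf (1.14), Lcn2 (1.06), Camp (0.871), Elane (0.129) and Mpo (0.125). Ngp overlapped Retnlg, and Ltf, Lcn2 and Camp overlapped each other, as did Elane and Mpo. In mutant cochleae S100a8 led with 5.09, ahead of S100a9 at 4.08 with overlapping libraries, and the other 7 genes lay between 0.0241 and 0.169. In heterozygous vestibules S100a9 again led with 51.5, followed by S100a8 (30.1), Ngp (10.3), Retnlg (5.46), Ltf (5.17), Mpo (4.93), Camp (2.58), Elane (2.47) and Lcn2 (1.96). Ngp overlapped Retnlg, Retnlg overlapped Ltf, Camp and Lcn2, Camp overlapped Lcn2, and the places of Mpo and Elane rest on replicate 1. In mutant vestibules S100a8 led with 8.30, ahead of S100a9 at 5.54 without overlap, and Mpo (0.797), Elane (0.370) and Lcn2 (0.327) stood above Ngp (0.0687), Retnlg (0.0477), Camp (0.0419) and Ltf (0.0373). These are means: Mpo lay above the last 4 genes without overlap, whereas Elane overlapped all 4 and Lcn2 overlapped Ngp and Retnlg.

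Summed over the 9 genes, mutant cochleae held 9.75, 4.26 and 6.72 CPM, against 33.4, 59.0 and 46.0 CPM in heterozygous cochleae. Mutant vestibules held 13.3, 13.2 and 12.1 CPM, against 132, 107 and 84.5 CPM in heterozygous vestibules. The ratio of the means, mutant over heterozygote, was 0.150 in the cochlea and 0.119 in the vestibule. Without Mpo and Elane, a sum chosen after seeing the data, it was 0.141 and 0.1105. The 4 secondary granule genes alone summed to 0.625, 0.387 and 1.16 CPM in mutant cochleae, against 9.91, 19.5 and 10.9 CPM in heterozygous cochleae, a mean 18.6 times higher in heterozygotes. They summed to 1.79, 0.977 and 0.532 CPM in mutant vestibules, against 28.0, 51.0 and 33.4 CPM in heterozygous vestibules, a mean 34.1 times higher in heterozygotes. The 4 primary granule genes Mpo, Elane, Prtn3 and Ctsg gave another picture. They averaged 1.46 ± 0.615 CPM in mutant and 1.25 ± 0.299 CPM in heterozygous cochleae. In vestibules they lay at 13.6, 7.18 and 9.17 CPM in mutants, against 74.4, 4.53 and 3.37 CPM in heterozygotes, so that mutants were above 2 of the 3 heterozygous libraries.

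The composition of what remained also differed. S100a8 and S100a9 made up 85.9, 87.9 and 72.4% of the summed CPM of the 9 genes in mutant cochleae, against 60.5, 64.4 and 71.2% in heterozygous cochleae. Their share was 62.3, 74.0 and 65.2% in mutant vestibules, against 35.5, 47.1 and 54.5% in heterozygous vestibules. The secondary granule genes made up 6.41, 9.09 and 17.2% in mutant cochleae, against 29.7, 33.1 and 23.7% in heterozygous cochleae, and 13.5, 7.40 and 4.39% in mutant vestibules, against 21.2, 47.9 and 39.5% in heterozygous vestibules. In both organs the groups did not overlap for either share. The CPM of S100a8 per CPM of S100a9, free of the library total, was 1.09, 4.80 and 1.8 in mutant cochleae, against 0.336, 0.482 and 0.415 in heterozygous cochleae. It was 1.96, 2.48 and 1.57 in mutant vestibules, against 0.712, 0.840 and 0.776 in heterozygous vestibules. The heterozygous libraries always held more S100a9 than S100a8, and the mutant libraries always the opposite. The cochlear mutant ratios rest on 5 to 32 reads of S100a9 per library.

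**Figure D3:**
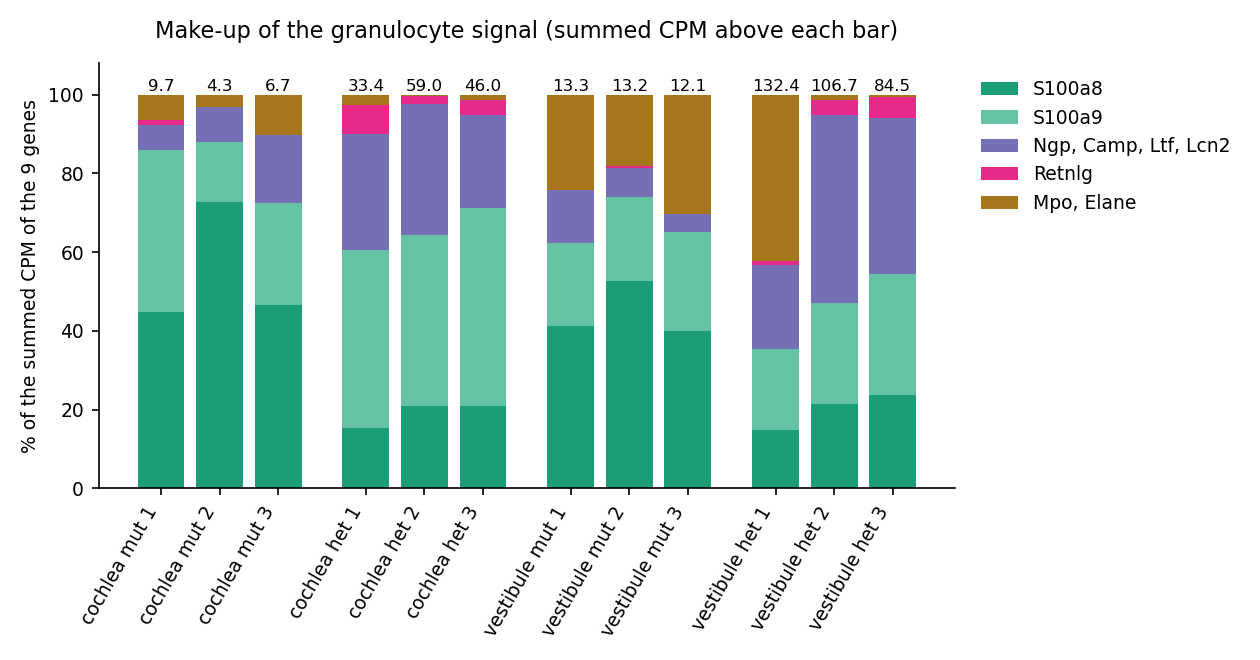
Share of each gene or gene group in the summed CPM of the 9 genes, in percent, in each library, with the summed CPM above the bar. Calprotectin (green) makes up 62.3% to 87.9% in mutants and 35.5% to 71.2% in heterozygotes, and Mpo with Elane (brown) stands out in vestibular heterozygous replicate 1 and in the mutant vestibules.

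Whether the changes differed between organs was tested as an interaction over 14674 genes that passed the filter in both organs, among them 6 of the 9. For Ltf the cochlear change minus the vestibular change was 1.86 (SE 0.40, limma adjusted p = 0.0175), the change being the larger one in the vestibule. This was 1 of 6 genes called higher, and 0 were called lower beside 0.709% and 2.43% of all genes tested. At an unadjusted p under 0.05 limma found 2 of 6 higher, while edgeR and DESeq2 called 0 of 6 in either direction, beside 3.52% of all genes with edgeR. The call depended on the scale, and with 0 to 4 Ltf reads in each mutant library of either organ the difference was set mostly by the heterozygous levels. With edgeR on the recovered reads the difference was 1.44 with an adjusted p of 0.762, with DESeq2 it was 1.39 with an adjusted p of 0.735, and over 22 alternatives it ran from 0.00337 to 0.762. It was also lost without cochlear heterozygous replicate 1, cochlear mutant replicate 1 or vestibular heterozygous replicate 2. On pooled reads the heterozygous level of Ltf was 47.3 (95% interval 12.7 to 396) times the mutant level in the cochlea and 132 (95% interval 69.5 to 290.1) times in the vestibule, intervals that overlap widely. For the other genes the difference was 0.99 for Ngp (SE 0.40, limma adjusted p = 0.281), 0.62 for S100a8 (SE 0.38, 0.531), 0.55 for Retnlg (SE 0.42, 0.653), 0.45 for Lcn2 (SE 0.47, 0.756) and -0.11 for S100a9 (SE 0.45, 0.949). The median difference over all genes was 0.11. These p-values do not show that the organs responded alike.

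Other granulocyte genes were taken from 4 lists by role. Of 5 further primary granule genes 0 passed the filter in cochlear and 2 in vestibular libraries, with 0 called by limma, edgeR or DESeq2 or at an unadjusted p under 0.05, where Prtn3 had a change of 0.53 (SE 0.55, limma adjusted p = 0.712) and Ctsg one of -0.91 (SE 0.67, limma adjusted p = 0.581). Of 10 further genes of secondary and tertiary granules, 8 were tested in the cochlea, with 0 called by limma, edgeR, DESeq2 or with the block, 2 lower at an unadjusted p under 0.05 and a median change of -0.09. In the vestibule 9 were tested and 2 were lower, beside 1.09% of all genes, and 4 with the block, beside 12.8%, with a median of -0.41. Cd177, a surface glycoprotein of neutrophils, had 0.792, 0.807 and 0.901 CPM in mutant vestibules, against 4.46, 6.08 and 6.03 CPM in heterozygous vestibules, and fell by 1.82 on the log2(CPM + 1) scale (SE 0.23, limma adjusted p = 0.00445). In the cochlea Cd177 had no read in any mutant library, against 0.508, 1.06 and 0.854 CPM in heterozygotes, too few for the filter (-0.84 with an adjusted p of 0.0103 when no filter was set). Pglyrp1, a peptidoglycan-binding granule protein, had 0.264, 0.595 and 0.246 CPM in mutant vestibules, against 2.05, 2.18 and 3.71 CPM in heterozygous vestibules, and fell by 1.40 on the log2(CPM + 1) scale (SE 0.28, limma adjusted p = 0.0336). Its adjusted p ran from 0.000213 to 0.126 over 15 alternatives, the highest with a single library left out. In the vestibule Cd177 and Pglyrp1 passed the filter only through the heterozygotes and had to differ. The vestibular counts for this list thus give no support of their own. The block added Chil3, a chitinase-like secreted protein, at -1.53 (adjusted p = 0.0934 without the block and 0.00462 with it, range 0.00462 to 0.317 over 15 alternatives). It also added the collagenase Mmp8 at -0.99 (0.176 without the block and 0.00793 with it, range 0.00793 to 0.490 over 15 alternatives). In the cochlea Chil3 was not called, at 0.625, 0.774 and 1.51 CPM in mutants, against 2.16, 2.52 and 2.88 CPM in heterozygotes, lower in all mutants.

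The list members with the highest levels are made by macrophages too and were not called. Mmp9, a gelatinase, averaged 693 ± 248 CPM in mutant and 849 ± 339 CPM in heterozygous vestibules. Itgam, the integrin alpha chain of CD11b, averaged 154 ± 21.8 CPM in mutant and 133 ± 26.4 CPM in heterozygous cochleae (SD, n = 3 each). The oxidase subunit genes Cybb and Cyba were not called in either organ. Cyba had overlapping groups in both organs and Cybb in the vestibule. Cybb had 87.9, 89.4 and 91.4 CPM in mutant cochleae, against 65.0, 82.5 and 75.7 CPM in heterozygous cochleae, higher in all mutants (0.27, SE 0.13, limma adjusted p = 0.436). Of 13 genes for neutrophil receptors and mature neutrophils, 5 could be tested in cochlear and 7 in vestibular libraries, with 0 called by limma or edgeR and medians of -0.20 and -0.41. At an unadjusted p under 0.05, or with DESeq2, 1 was lower in each organ. The chemokine receptor gene Cxcr2 passed with the block in both organs, as did 4.31% of all genes in cochlear and 12.8% in vestibular libraries in the lower direction. It had 0.50, 1.03 and 1.39 CPM in mutant cochleae, against 1.27, 4.25 and 5.13 CPM in heterozygous cochleae, with a change of -1.11 and an adjusted p of 0.139 without and 0.0121 with the block (range 0.0121 to 0.461 over 15 alternatives). It had 0.158, 0.849 and 0.164 CPM in mutant vestibules, against 1.38, 3.77 and 1.8 CPM in heterozygous vestibules, with a change of -1.23 and an adjusted p of 0.116 without and 0.00271 with the block (range 0.00271 to 0.363 over 15 alternatives). In the vestibule Cxcr2 passed the filter only through the heterozygotes and had to differ. Csf3r, the receptor for the granulocyte growth factor G-CSF, averaged 6.26 ± 1.31 CPM in mutant and 7.45 ± 2.13 CPM in heterozygous cochleae, with overlapping groups.

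Of 9 transcription factors of the granulocyte lineage, 7 were testable in cochlear and 8 in vestibular libraries, and Gfi1 alone was called, lower in both organs (-0.90, SE 0.16, limma adjusted p = 0.00355 in the cochlea and -1.19, SE 0.13, limma adjusted p = 0.00234 in the vestibule). With the block the proto-oncogene Myb, active in blood progenitors, was also lower in the vestibule, at -0.76 (adjusted p = 0.0172, and 0.271 without the block, range 0.0172 to 0.521 over 15 alternatives). Spi1, the gene for PU.1, averaged 17.0 ± 2.98 CPM in mutant and 17.8 ± 1.69 CPM in heterozygous cochleae, and 153 ± 35.5 CPM in mutant and 192 ± 85.6 CPM in heterozygous vestibules. Its groups overlapped in both organs. Cebpe, the C/EBP factor needed for secondary granules, had 0, 0 and 0 CPM in mutant cochleae, against 0, 0.133 and 0 CPM in heterozygous cochleae. In vestibules it had 0, 0 and 0.328 CPM in mutants, against 0.179, 0.0839 and 0.170 CPM in heterozygotes. No library held more than 8 Cebpe reads, and the groups overlapped in both organs.

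Markers of other blood cells and tissues were read in the same libraries. The 12 macrophage markers summed to 2699 to 3303 CPM in mutant and 2216 to 2778 CPM in heterozygous cochleae, with 2 of 12 higher (Lyz2 and Fcgr3), and to 6961 to 8162 CPM in mutant and 7324 to 9223 CPM in heterozygous vestibules. There 0 of 12 were called by limma, edgeR or DESeq2, 2 were lower at an unadjusted p under 0.05 and 3 with the block (Adgre1, Aif1 and Cx3cr1), beside 12.8% of all genes. The 8 mast cell markers summed to 91.2 to 141.4 CPM in mutant and 133.1 to 186.8 CPM in heterozygous cochleae, with Cma1 and Mcpt4 lower among 6 tested. In vestibules they summed to 254.9 to 482.9 CPM in mutants and 1708 to 1962 CPM in heterozygotes, with Cma1, Mcpt4, Tpsb2 and Cpa3 lower among 7 tested. These mast cell markers were lower beside the granulocyte genes, and their part in the result was not tested. Of 6 eosinophil markers 0 reached the filter, with sums of 0.750 to 1.51 CPM in mutant and 0.762 to 3.32 CPM in heterozygous cochleae and of 1.42 to 2.21 CPM in mutant and 1.84 to 2.28 CPM in heterozygous vestibules. Of the monocyte markers Vcan was lower in the cochlea, 1 of 4 tested, beside 2.52% of all genes tested, while the median change of the 4 was 0.28. In the vestibule 0 of 5 were called by limma or edgeR, with a median of -0.03, and 1 was lower at an unadjusted p under 0.05 or with DESeq2. Erythroid and lymphocyte markers had 0 called by limma, edgeR or DESeq2 in either organ and 2 lymphocyte markers lower at an unadjusted p under 0.05 in the vestibule, with erythroid sums of 2220 to 7683 CPM in mutant and 2826 to 8157 CPM in heterozygous vestibules. Of 4 platelet markers tested in each organ, Itga2b was lower in the vestibule. The mesenchyme markers had 0 of 6 called in the cochlea by limma, edgeR or DESeq2 or at an unadjusted p under 0.05. In the vestibule 2 of 6 were lower, Col1a1 and Col3a1, and the list summed to 959.5 to 1290 CPM in mutants and 1767 to 2222 CPM in heterozygotes, a fall whose part in the result was not tested. The hair cell markers had 4 of 8 lower in the cochlea and 0 of 8 called by limma or edgeR in the vestibule, where 1 was higher at an unadjusted p under 0.05 or with DESeq2. Of the granulocyte genes 5 of 6 tested were called lower in the cochlea, beside 2.52% of all genes tested. In the vestibule 7 of 8 tested were called lower, beside 1.09%. Several of these genes passed the filter only through the heterozygotes, so these counts give no support of their own.

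**Figure D4:**
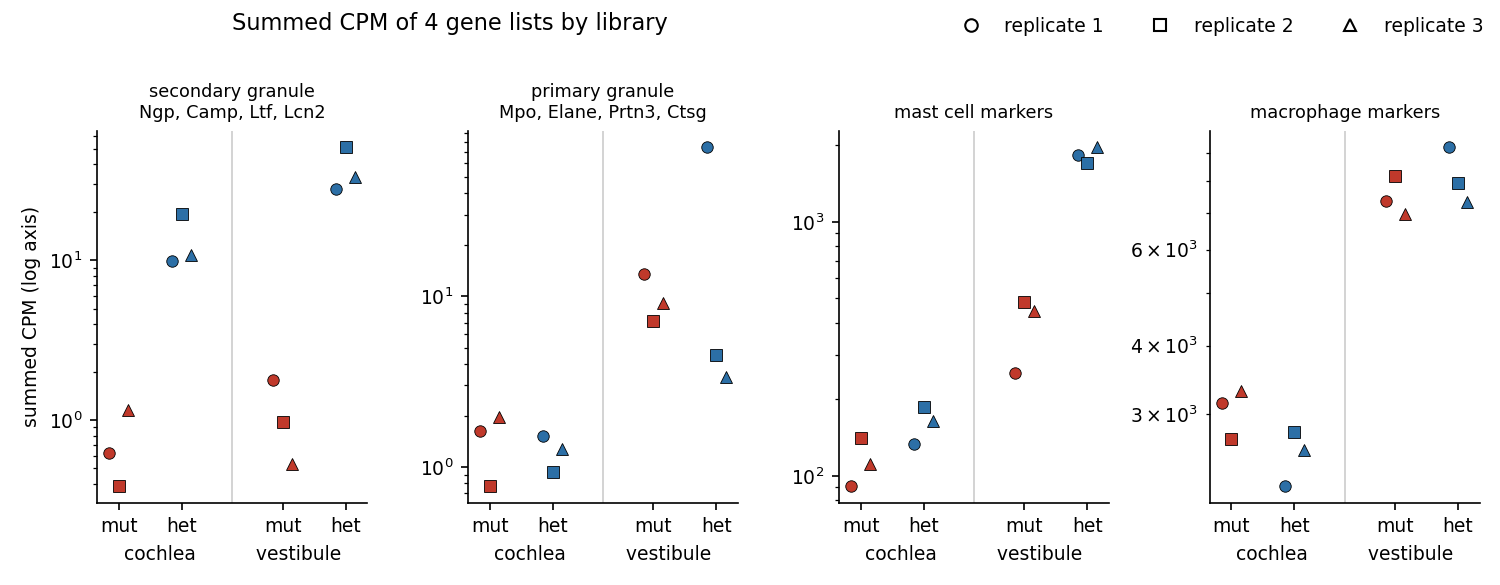
Summed CPM, on log axes, of the secondary granule genes, the primary granule genes, the mast cell markers and the macrophage markers in each library, with mutants (red, mut) left of heterozygotes (blue, het) in each organ. Mutants lie below heterozygotes without overlap for secondary granule genes in both organs and for mast cell markers in the vestibule. They overlap them for mast cell markers in the cochlea and for macrophage markers and primary granule genes in both organs.

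The genes most like the 9 in their pattern were found by Pearson's r with the mean of the 6 members tested in both organs, over 12 libraries and 14674 genes after each organ's mean was subtracted from log2(CPM + 1). The 12 libraries share 2 genotypes, so r largely ranks the separation of the genotypes and is given as a description. Predicted genes (Gm, Rik, AC or AL names) were passed over. BC100530 led the other non-members with r = 0.989, at 0 to 0.125 CPM in mutant and 2.54 to 4.25 CPM in heterozygous cochleae and 0 to 0.382 CPM in mutant and 4.96 to 6.75 CPM in heterozygous vestibules. Its mutant libraries were at or near 0 in both organs, as for Ngp and Ltf. Pgam2, a muscle-type glycolytic enzyme, followed with r = 0.972 and the calcium pump gene Atp2a3 with 0.967. Pgam2 had 3.13 to 3.75 CPM in mutant and 24.8 to 35.9 CPM in heterozygous cochleae, and 2.50 to 4.88 CPM in mutant and 27.1 to 50.1 CPM in heterozygous vestibules. The next genes that are not predicted were Stac (0.966), Homer2 (0.940), Fzd10 (0.937), Prkca (0.934) and Tjp3 (0.931). The 6 members are themselves part of the mean, so their high ranks were largely fixed in advance. Among them Ngp had rank 1 and Ltf rank 2 of all genes, and Lcn2 was the lowest at rank 12.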

How the data were processed

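Ribosome-bound RNA was measured in 12 libraries. The authors deposited CPM per gene, per the file headers. The submitters' processing notes name GRCm38 and TopHat without a version, and the counting tool, strand setting and annotation are not given in the sources used here. All deposited CPM values (100% within 1e-06) were whole multiples of 1 read, so whole reads were recovered. Reads outside the listed genes made up 0.184% to 0.2115% of cochlear and 0.1193% to 0.7288% of vestibular totals.

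Genes reaching 1 CPM in 3 or more of 6 libraries per organ entered limma 3.58.1 (trend, two-sided; R 4.3.3) on log2(CPM + 1), a scale that understates the change of low genes. Calls required a Benjamini-Hochberg adjusted p under 0.05 over all genes tested. The organs were compared by the interaction in a single fit of 12 libraries. Alternatives were edgeR 4.0.16 (quasi-likelihood) and DESeq2 1.42.0 on recovered reads, pseudocounts of 0.25 and 4, no filter or 5 CPM, TMM or median-of-ratios rescaling, a replicate block, and left-out libraries. Ratios of pooled reads carry exact (Clopper-Pearson) 95% intervals. The limma and edgeR fits were also run on simulated reads, drawn independently for each library. That check did not cover the correlation of same-numbered libraries or falls as large as those of Ngp and Ltf.

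Replicate numbers come from the labels. Libraries of the same number and organ deviated together from their group means (correlations over genes of 0.226, 0.226 and 0.420 in the cochlea, and 0.766, 0.508 and 0.599 in the vestibule). Only the replicate block treated same-numbered libraries as pairs. The main tests took all libraries as independent, as the series describes them, and some calls depended on this choice.

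The 9 genes, the 4 lists of other granulocyte genes and the 9 marker lists were chosen with earlier results of these data known. The genes named were the 9, Gfi1, list genes called in an organ or otherwise highest in level (up to 4 a list), and the 8 non-members most like the 9 once predicted genes (Gm, Rik, AC or AL names) were passed over. Other genes named were chosen after their values were seen.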

Additional observations from a re-analysis of the deposited data

Results flagged for a closer look

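For Ltf the test of the difference between organs passed with limma on the log2(CPM + 1) scale, where the cochlear change minus the vestibular change was 1.86 (SE 0.40, adjusted p = 0.0175, range 0.00337 to 0.762 over 22 alternatives). On the recovered reads it did not pass with edgeR (adjusted p = 0.762) or DESeq2 (0.735). Mutant libraries were lower than all heterozygous ones in each organ. Ltf stood at 0 to 0.25 CPM in mutant and 2.92 to 5.71 CPM in heterozygous cochleae, and at 0.0528 to 0.170 CPM in mutant and 12.7 to 24.7 CPM in heterozygous vestibules. Each mutant library held 0 to 4 Ltf reads, so on this scale the difference was set mostly by the heterozygous levels and does not show that the proportional change differed, and organ and library kit cannot be told apart.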

How the results depend on the processing

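In the cochlea 5 of the 9 genes were called, all 5 again with each other tool, pseudocount and scaling and with no filter, but 1 of 2 tested with the 5 CPM filter and 4 to 6 in all with single libraries left out. The replicate block gave 6, and 1532 calls over all genes against 794 without it (546 to 801 with single libraries left out). In the vestibule 7 were called, also with the block, 6 with edgeR or no filter, 4 of 4 tested with the 5 CPM filter, and 4 to 7 with single libraries left out. Without heterozygous replicate 2 or 3 or mutant replicate 2 or 3 the 4 that kept their call were S100a8, S100a9, Ngp and Ltf. Over all vestibular genes 546 were called, 3634 with the block, 1234 with DESeq2, 358 with no filter, 863 without both replicate 1 libraries, and 226 to 522 with single libraries left out. The block changed no other call of the 9 genes. Between organs 1 of 6 differed, but 0 with DESeq2, edgeR, a pseudocount of 0.25 or without both cochlear replicate 3 libraries, 0 of 2 tested with the 5 CPM filter, which left Ltf untested, and 0 to 1 with single libraries left out. Over all genes 461 differed, 1955 with the block, 815 with DESeq2, 280 without both cochlear replicate 3 libraries and 302 to 453 with single libraries left out. The ratio of summed means, mutant over heterozygote, ran from 0.119 to 0.1785 for cochleae and 0.1077 to 0.1347 for vestibules with single libraries left out, and without S100a8 and S100a9 it was 0.0789 for cochleae and 0.0703 for vestibules, against 0.150 and 0.119 with them.

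Changes that turned direction belonged to genes not called in that comparison. Mpo in the vestibule was 0.97 without heterozygous replicate 1 (-1.52 at the lowest with single libraries left out) and 0.93 without both replicate 1 libraries. In the cochlea Pglyrp1 was 0.0656 without both replicate 3 libraries, and Myb ran from -0.13 without mutant replicate 3 to 0.45 without mutant replicate 1. In the difference between organs S100a9 was 0.11 with a pseudocount of 4 and, with single cochlear libraries left out, -0.52 to 0.28 (0.0373 without heterozygous replicate 2), and Lcn2 was -0.10 with edgeR and -0.15 with DESeq2. Fewer genes were tested under the 5 CPM filter; for the other settings the cause was not tested.

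Depth limits the mutant values. A library without a read allows up to 3 reads, which is 0.320 to 0.398 CPM for cochlear and 0.102 to 0.158 CPM for vestibular libraries, counting error alone. The mutant levels of Ngp, Camp, Ltf and Retnlg lie at or near this floor.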

Other observations

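Among the genes for neutrophil receptors and mature neutrophils that were too low for the filter, 3 had groups without overlap. Among all genes tested, mutants lay wholly below heterozygotes for 7.77% in the cochlea and 11.6% in the vestibule. The share wholly above is not given. These 3 genes were chosen after their values were seen and were not in the main test. When no filter was set none passed. The limma adjusted p was then 0.202 for Fpr2 in the cochlea, and 0.279 for Il1b and 0.0736 for Wfdc21 in the vestibule. The formyl peptide receptor gene Fpr2 had 1.5, 0.645 and 2.08 CPM in mutant cochleae, against 0.508, 0.133 and 0.427 CPM in heterozygous cochleae. The cytokine gene Il1b had 0.792, 0.637 and 0.983 CPM in mutant vestibules, against 0.491, 0.252 and 0.272 CPM in heterozygous vestibules. Both lay higher in all mutant libraries of that organ, whereas in the other organ the groups overlapped. Wfdc21, the gene of a small secreted protein, had 0.0528, 0 and 0.0819 CPM in mutant vestibules, against 0.402, 0.503 and 0.340 CPM in heterozygous vestibules, lower in all mutant libraries.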
